A study of Mus musculus with 71 samples.

Results

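Loss of the histone methyltransferase G9a in the mouse striatum was followed across all named genes, by comparing the 4 arrays titled as G9a striatum mutants with the 4 titled as G9a striatum controls. These 8 arrays are part of a series of 71, of which 59 hold total RNA from whole brain regions and 12 hold polyribosome-bound RNA from striatal neurons. The mutants were labelled Camk2a-Cre; G9afl/fl, and the controls were littermates with the floxed G9a alleles, matched for age and sex; a strain was not given in the sources used here. Mice were 10 to 14 weeks old per the series design, and the labels number the source mice from 1 to 4 in each group. Cre recombinase under the Camk2a promoter is active in forebrain neurons after birth, so glia, vessel cells and neurons outside its reach keep the gene, and both groups carry the floxed alleles. RNA was taken from the whole dissected striatum. Fewer cells of a type and less RNA per cell therefore cannot be told apart in any value below. For comparison the series holds striatum arrays from mice that lost the partner enzyme GLP (gene Ehmt1) through the same driver, arrays of other regions lacking G9a, and pools of neurons lacking G9a only where the dopamine receptor gene Drd1 or Drd2 is active.

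G9a, encoded by Ehmt2, works as a complex with GLP and adds 1 or 2 methyl groups to histone H3 at lysine 9 (H3K9) in euchromatin, a mark associated with silent genes. In neurons the complex is known for holding down genes of other lineages and of earlier developmental stages. The striatum is made up mainly of inhibitory medium spiny neurons, split between cells with Drd1 and cells with Drd2, and it lies directly beneath the cortex, whose projection neurons express Slc17a7, Tbr1 and Neurod6.

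The genes with the 4 largest rises were Ttn, Afp, Dach2 and Corin. Their promoters are shown because the same genes carry the main finding, being below the array median in every control and far above it in every mutant. Each sequence runs 5′ to 3′ from 250 bases before to 50 bases after the annotated start, taken from RefSeq on GRCm38.p6. Capitals mark each CG pair, the site of DNA methylation in mammals, and each TATAAA on either strand, the core letters of a TATA box. The Ttn promoter is at chr2:76982498-76982797 on the minus strand, that of Afp at chr5:90490464-90490763 on the plus strand, that of Dach2 at chrX:113297260-113297559 on the plus strand and that of Corin at chr5:72504491-72504790 on the minus strand.
Ttn: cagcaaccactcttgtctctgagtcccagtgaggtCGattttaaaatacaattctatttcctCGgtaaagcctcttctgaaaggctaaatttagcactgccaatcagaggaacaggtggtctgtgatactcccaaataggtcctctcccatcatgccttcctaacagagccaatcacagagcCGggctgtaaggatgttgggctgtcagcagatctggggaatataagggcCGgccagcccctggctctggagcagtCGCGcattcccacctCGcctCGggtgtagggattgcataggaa
Afp: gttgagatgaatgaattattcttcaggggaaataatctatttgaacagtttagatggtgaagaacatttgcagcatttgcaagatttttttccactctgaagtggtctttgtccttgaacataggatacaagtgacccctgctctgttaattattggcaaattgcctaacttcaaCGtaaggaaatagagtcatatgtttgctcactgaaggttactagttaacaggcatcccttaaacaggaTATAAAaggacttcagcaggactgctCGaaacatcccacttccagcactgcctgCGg
Dach2: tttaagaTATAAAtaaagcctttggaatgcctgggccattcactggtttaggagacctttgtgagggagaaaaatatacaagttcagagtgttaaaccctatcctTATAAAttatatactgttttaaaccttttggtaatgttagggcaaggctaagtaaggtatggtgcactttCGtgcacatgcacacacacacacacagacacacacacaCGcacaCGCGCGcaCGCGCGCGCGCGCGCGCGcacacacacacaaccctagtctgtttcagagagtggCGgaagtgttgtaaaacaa
Corin: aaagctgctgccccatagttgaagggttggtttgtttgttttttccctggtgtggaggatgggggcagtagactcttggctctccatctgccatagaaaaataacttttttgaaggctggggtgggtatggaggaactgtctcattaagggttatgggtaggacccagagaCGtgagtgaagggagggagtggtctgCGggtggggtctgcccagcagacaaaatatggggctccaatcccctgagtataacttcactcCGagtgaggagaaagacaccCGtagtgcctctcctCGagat

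The 4 promoters held 8, 3, 15 and 5 CG pairs for Ttn, Afp, Dach2 and Corin. The median was 7 over all 27025 promoters of the table and 21 over the 9384 of 11569 tested genes that have one there. TATAAA was present in the Afp promoter, 7 bases before the start, and at 2 places in that of Dach2. It occurred in 14.2% of all promoters of the table and in 6.77% of those of tested genes. The Dach2 window also holds a run of alternating C and G, which supplies many of its CG pairs. A match describes letters in the sequence and does not show binding. Only 167 of the 217 genes that rose and 96 of the 133 that fell have a promoter in the table, under 80% of each, so a comparison of promoter content between those genes and the rest would be void and is not given. Fst and Reep6, the largest falls among genes named here, are not listed in it.

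Values are given as log2 intensity relative to the median of the same array, so 0 is that median, and a difference is the mutant mean minus the control mean on this scale. Of 18193 named genes, 11569 lay above the array median in at least 4 of the 8 arrays and were tested with limma, with p-values adjusted over all tested genes by the Benjamini-Hochberg method at 0.05. The test called 350 genes, 3.03% of those tested. Of these, 217 rose (1.88%) and 133 fell (1.15%). The rises were larger: their median difference was 0.85, against -0.50 for the falls and -0.0039 for all genes tested. A rise over 1 was seen for 86 genes and over 2 for 18, while 22 genes fell by more than 1 and 3 by more than 2. All mutants lay on 1 side of all controls for 184 of the rises and 105 of the falls; over all genes tested this held for 1321 (11.4%), 708 of them higher in mutants (6.12%) and 613 lower (5.3%). In 42 of the rises the control mean was below the array median, and for 20 every control was below it and every mutant above. A gene below the median in controls entered the test only where mutants lifted it, so that set could hardly contain falls. Without control 1 the count of called genes was 224, and without control 4 it was 380.

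The deleted gene checked the labels. Ehmt2 was at 3.89, 4.16, 3.94 and 4.02 in mutants 1 to 4, and at 5.43, 5.41, 4.77 and 5.52 in controls 1 to 4. The groups did not overlap, and control 3 was the lowest control. The mutant level was 41.1% of the control level, a difference of -1.28 ± 0.14 (SE from limma, adjusted p = 9.12e-10, n = 4 and 4). It was -1.46 without control 3 and -0.77 against control 3 alone. Control 3 was singled out for its levels of cortical markers. As 1 array it has no spread of its own, so differences of genes from it alone are given as values with no test. Only the closing tally over all alternatives includes that fit. RNA remaining in mutants includes that of cells the driver does not reach; the position of this probe set relative to the deletion was not given in the sources used here. A second Ehmt2 probe set, below the median of most arrays, differed by -0.21. Ehmt1, the gene of the partner GLP, was at 2.36, 2.32, 2.56 and 2.58 in mutants and 2.11, 2.06, 2.15 and 2.27 in controls. Its difference of 0.31 ± 0.12 did not pass the test (adjusted p = 0.171), although the arrays did not overlap.

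Markers of cortical projection neurons differed among the arrays in a way that crosses the groups. The mean log2 level of 20 such markers was 2.52, 2.42, 1.99 and 2.27 in mutants 1 to 4 and 1.22, 1.17, 2.54 and 1.24 in controls 1 to 4. Control 3 therefore stood with the mutants and the other 3 controls stood apart from all 5. The same mean was 2.12 in the control striatum arrays of the GLP line and 2.11 in its mutants. The difference of 0.76 had an exact two-sided permutation p of 0.143, and without control 3, an array singled out on these same markers, it was 1.09, given with no test. Of 16 tested markers, 5 rose and none fell, where 1.88% of all genes tested rose. The median was 0.64 against -0.0039 for all tested genes. The 5 that rose were below the array median in controls 1, 2 and 4, and entered the test mainly through mutants. This count and median are therefore no measure of the list. All mutants lay above all controls for 1 of the 16 and below them for 2, compared with 6.12% and 5.3% of all genes tested. Tbr1, a transcription factor of deep-layer neurons, shows the pattern of control 3 standing with the mutants. Tbr1 was at 2.89, 2.66, 1.79 and 2.26 in mutants and at -0.14, -0.41, 2.70 and -0.50 in controls, so that control 3 lay above 3 of the 4 mutants. Its difference of 1.99 ± 0.55 passed the test (limma, adjusted p = 0.0276) and was 2.75 without control 3. Against control 3 alone it was -0.30. The same held for the vesicular glutamate transporter gene Slc17a7 (2.09 with all controls, -0.68 against control 3 alone), Neurod6 (2.88 and -1.18) and Rtn4rl2 (1.79 and -0.18), while Neurod2 went from 1.79 to 0.10. Leaving out any 1 of controls 1, 2 and 4 ended the calls of Slc17a7, Tbr1, Rtn4rl2 and Neurod6, as did leaving out mutant 1, 2 or 4 for the first 3 of these and mutant 3 for Slc17a7. The call of Neurod2 was lost without control 2. In a fit of the 8 arrays alone, which kept 253 of the 350 calls, none of these 5 genes passed (adjusted p = 0.082 for Neurod2 and 0.11 to 0.18 for the others). The part of cortical tissue in these arrays was not tested.

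**Figure D1:**
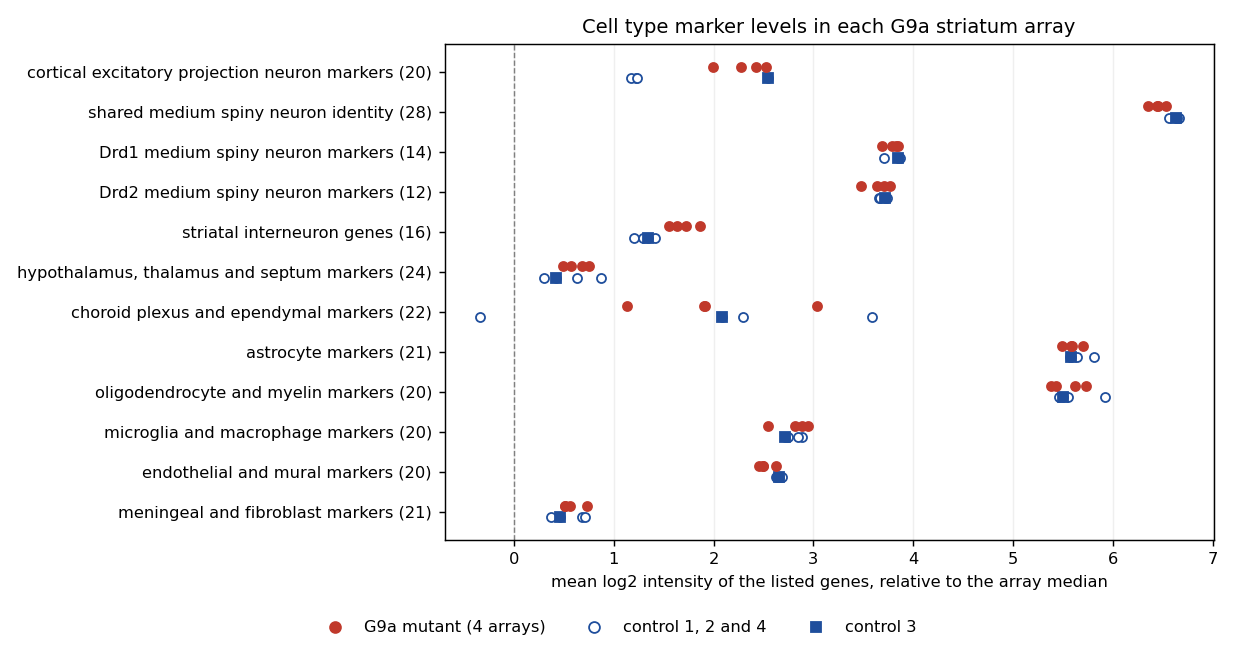
Mean log2 intensity of each list of cell type markers, relative to the array median, in each of the 8 arrays; the number of genes is in parentheses, red points are mutants, open circles controls 1, 2 and 4, and the filled square is control 3. Cortical markers put control 3, at 2.54, beside the mutants, which lie between 1.99 and 2.52, while the other controls lie between 1.17 and 1.24.

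Because of this, each gene was also set against the difference between cortex and striatum in control mice of the GLP line, which are separate arrays. Among the 217 genes that rose, 65 (30%) were higher in that cortex than in that striatum by more than 1, compared with 586 (5.07%) of all genes tested. Among the 133 that fell, 44 (33.1%) were lower in cortex by more than 1, compared with 788 (6.81%) of those tested. The other direction was less frequent, with 19 rises (8.76%) lower in cortex and 2 falls (1.5%) higher. For 133 rises and 87 falls the 2 regions differed by no more than 1. With the cortical marker mean as a covariate over the 8 arrays, 158 genes were called, and 120 of the 350 kept their call, 84 rises and 36 falls. The same 8 arrays without the covariate gave 383 called genes, and 253 of the 350 kept their call. Control 3 was the control nearest to the mutant mean for 83 of the rises (38.2%) and 28 of the falls (21.1%), compared with 24.4% of the genes tested. Control 4 was nearest for 59 of the rises (27.2%) and 75 of the falls (56.4%), compared with 32.7% of the genes tested.

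**Figure D2:**
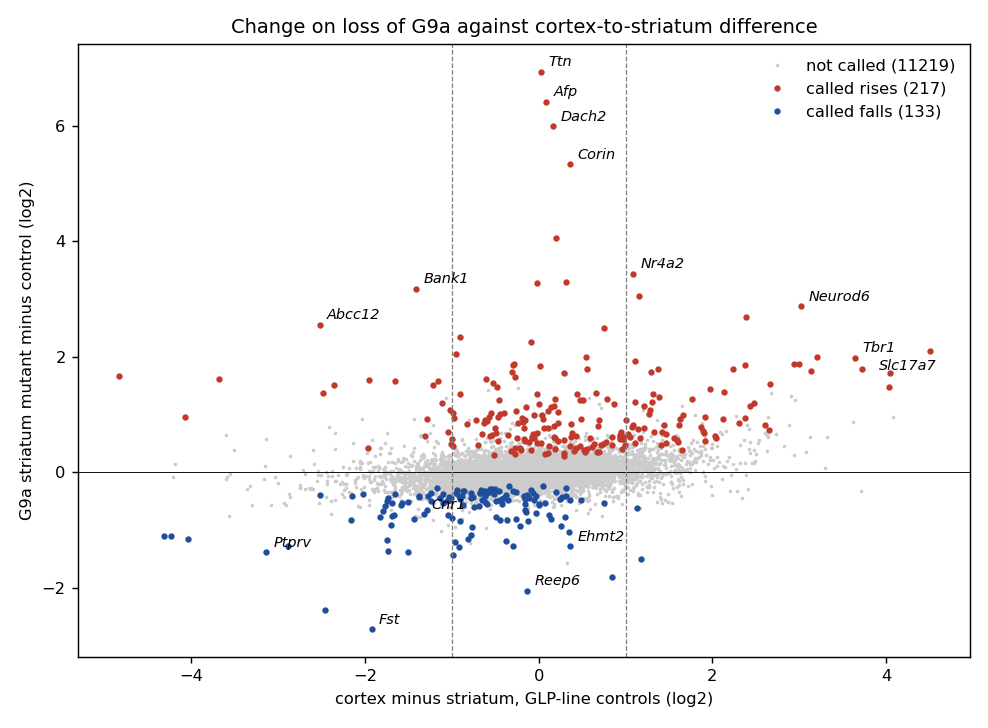
For each of the 11569 tested genes, the difference between G9a striatum mutants and controls (log2, vertical axis) against the difference between cortex and striatum in GLP-line controls (log2, horizontal axis); red points are the 217 rises, blue points the 133 falls, and dashed lines mark differences of 1 between the regions. Ttn, Afp, Dach2 and Corin rise near the middle, at cortex differences of 0.02 to 0.37, while Neurod6, Tbr1 and Slc17a7 lie at 3.02, 3.64 and 4.50.

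The 4 largest rises, Ttn, Afp, Dach2 and Corin, did not follow the cortical markers. Ttn, which encodes the giant spring protein of the muscle sarcomere, was at 5.19, 5.00, 5.08 and 5.03 in mutants and at -2.86, -1.65, -1.55 and -1.36 in controls. Measured from the array median, below which the controls lay, this is at least 33.7-fold, and the fitted difference was 6.93 ± 0.38 (limma, adjusted p = 7.3e-20). Control 3, at -1.55, was among the other controls. Afp, the serum protein of fetal liver and yolk sac, was at 3.89, 4.21, 3.54 and 3.93 in mutants and at -2.29, -2.84, -2.46 and -2.51 in controls, at least 14.8-fold, with a difference of 6.41 ± 0.31 (adjusted p = 4.9e-22). Dach2, a dachshund-family cofactor of transcription in limb, eye and muscle development, was at 4.71, 4.71, 4.33 and 4.51 in mutants and at -1.69, -1.23, -1.74 and -1.04 in controls, at least 23.7-fold (difference 5.99 ± 0.22, adjusted p = 1.4e-27). In both genes every control lay below the array median and the mutants spread over less than 1. Corin, the protease that activates atrial natriuretic peptide in the heart, was at 4.21, 3.89, 3.35 and 4.07 in mutants and at -1.71, -1.50, -1.79 and -0.79 in controls, at least 14.7-fold (difference 5.33 ± 0.24, adjusted p = 1.63e-23). With the cortical mean as a covariate the differences were 6.72 for Ttn, 6.29 for Afp, 6.14 for Dach2 and 5.43 for Corin, and against control 3 alone they were 6.63, 6.35, 6.31 and 5.67. Not every probe set of these genes moved: for Ttn 4 of 6 differed by more than 1, and for Afp 3 of 5.

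**Figure D3:**
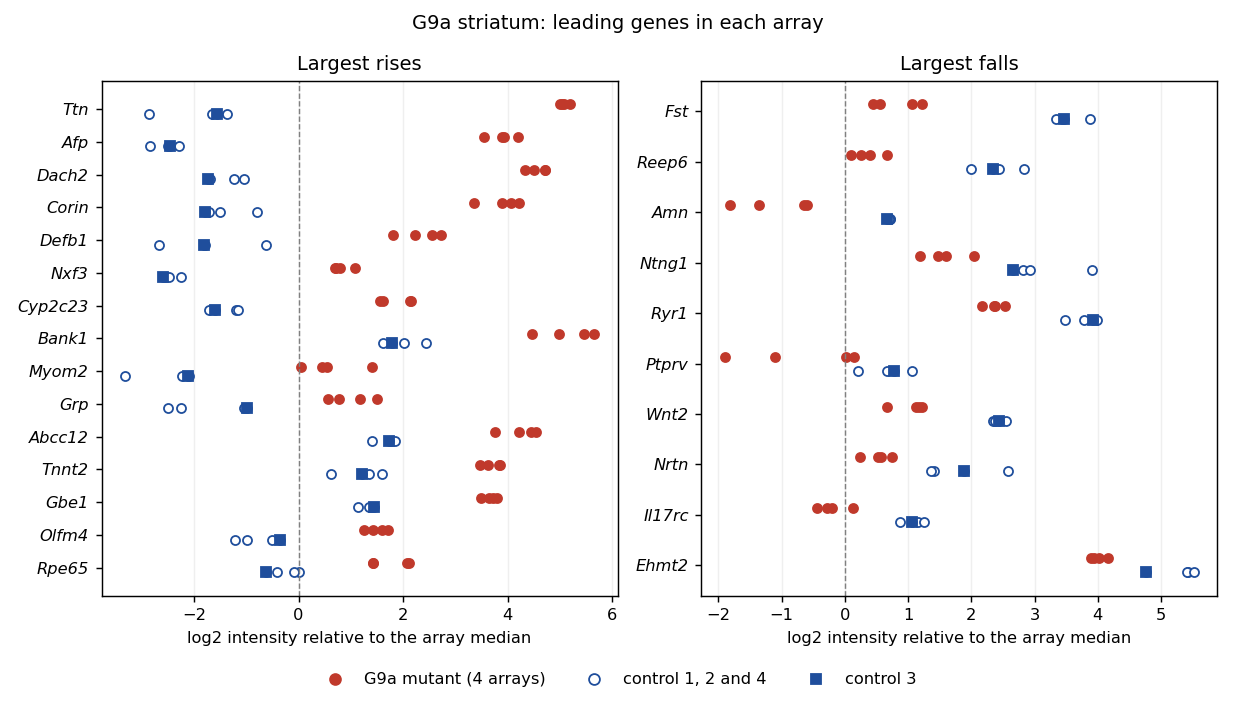
Log2 intensity relative to the array median (dashed line at 0) in each array for the 15 largest rises and the 10 largest falls among called genes whose groups do not overlap; red points are mutants, open circles controls 1, 2 and 4, and the filled square is control 3. Ttn mutants lie between 5.00 and 5.19 and its controls between -2.86 and -1.36, while Ehmt2 controls lie between 4.77 and 5.52 with control 3 lowest.

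Several other genes of striated muscle rose besides Ttn. Of 44 on the array, 29 were too low to be tested; of the 15 tested, 8 rose, 1 fell and 6 did not pass, where 1.88% of all genes tested rose. The filter let in members low in controls only where mutants lifted them, so this count is no measure of the list. Tnnt2, cardiac troponin T, was at 3.85, 3.84, 3.47 and 3.63 in mutants and at 1.35, 1.60, 1.21 and 0.62 in controls. It was above the array median in every array and rose 5.67-fold (difference 2.50 ± 0.24, adjusted p = 4.66e-11, limma). Pgam2, the muscle phosphoglycerate mutase of glycolysis, rose 3.61-fold (difference 1.85 ± 0.23), and Casq2, the calcium-binding protein of cardiac sarcoplasmic reticulum, by 1.24 ± 0.22. Myom2, a protein of the sarcomere M band, rose from below the median in every control to between 0.04 and 1.40 in mutants. With values below the median set to it, its difference of 0.61 did not pass (adjusted p = 0.24), and 2 of its 4 probe sets differed by only -0.08 and 0.23. Myom2 is also higher in control cortex than striatum, by 1.15, and differed by 2.73 against control 3 alone. Myh7, the slow myosin heavy chain, was at 4.33, 4.50, 4.45 and 4.21 in mutants against 3.48, 3.50, 3.52 and 3.37 in controls, a difference of 0.91 (adjusted p = 0.011). Myl4 and Myh3 rose by 1.99 and 1.44 but are higher in control cortex than striatum by 3.20 and 1.98. Against control 3 alone they differed by 1.10 and 0.11, and the call of Myh3 was lost without mutant 2 or 4 or control 1, 2 or 4. The fast myosin Myh4, the creatine kinase gene Ckm and the regulators Myod1 and Myog were below the filter, with differences of -0.17, -0.15, -0.13 and -0.05. Ryr1, the calcium release channel of skeletal muscle, was at 2.16, 2.38, 2.37 and 2.54 in mutants and at 3.98, 3.78, 3.92 and 3.49 in controls. It fell by 1.43 (SE 0.28, adjusted p = 0.000785), and was the 1 tested member that fell.

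Lists of genes from other organs held a few rises each, where 1.88% of all genes tested rose and 1.15% fell. Most members of each list were too low to be tested. Members low in controls entered only where mutants lifted them, so these counts are no measure of the lists. Of 5 tested genes of liver and plasma proteins Afp alone rose, and of 20 tested homeobox and developmental factors Dach2 alone. Of 8 tested secreted epithelial and defence genes 3 rose and none fell. Defb1, a beta-defensin of epithelia, was at 2.74, 2.56, 1.80 and 2.24 in mutants and at -1.80, -2.68, -1.81 and -0.63 in controls, at least 5.04-fold (difference 4.06 ± 0.54, adjusted p = 4.36e-07, limma). Olfm4, a glycoprotein of intestinal crypts, was at 1.42, 1.71, 1.26 and 1.59 against -0.99, -1.21, -0.35 and -0.51, at least 2.82-fold. Lipo3, of the lipase family, rose by 0.41 (adjusted p = 0.0339), a call lost in 7 of the 8 fits without 1 array. Nxf3, an X-linked gene of the nuclear RNA export family, was at 1.08, 0.70, 0.73 and 0.80 in mutants and between -2.59 and -2.26 in controls (difference 3.29 ± 0.24). Dazl, an RNA-binding protein of germ cells, was at 1.25, 1.58, 1.38 and 1.51 in mutants and at 2.78, 2.50, 2.83 and 2.29 in controls, and fell by 1.17 (adjusted p = 4.33e-05). So of 3 tested germ cell genes 1 rose and 1 fell. Dazl is lower in control cortex than striatum by 1.74, and kept its call with the cortical mean as a covariate.

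Gbe1, the glycogen branching enzyme, was at 3.80, 3.73, 3.50 and 3.65 in mutants and at 1.40, 1.13, 1.45 and 1.34 in controls, a 5.06-fold rise (difference 2.34 ± 0.17, adjusted p = 3.14e-15, limma). Its spread within each group was far below the difference. Abcc12, an ABC transporter, was at 4.54, 4.23, 3.75 and 4.44 against 1.77, 1.84, 1.73 and 1.41 (5.87-fold). Bank1, a scaffold of B cell receptor signalling, was at 5.66, 5.46, 4.46 and 4.98 against 2.44, 2.02, 1.78 and 1.61 (9.05-fold). Both are lower in control cortex than in striatum, by 2.52 and 1.41, so their rises ran opposite to that difference between the regions. Of the 5 tested blood and lymphocyte genes Bank1 alone was called, where 3.03% of all genes tested were called. Cyp2c23, which makes epoxides of arachidonic acid in kidney, was at 1.62, 1.56, 2.15 and 2.13 in mutants and between -1.71 and -1.15 in controls (difference 3.28 ± 0.21). Rpe65, the retinoid isomerase of the eye's pigment epithelium, was at 2.12, 2.08, 1.43 and 1.42 against 0.01, -0.09, -0.62 and -0.42 (difference 2.04 ± 0.27). Plce1, a phospholipase C of Ras signalling named for its difference between regions, was at 4.93, 4.90, 4.77 and 4.90 against 3.10, 3.49, 3.10 and 3.49, a 2.99-fold rise. Grp, the precursor of gastrin-releasing peptide, rose from between -2.49 and -0.99 to between 0.56 and 1.49 (difference 2.69 ± 0.51, adjusted p = 0.000403). Grp is higher in control cortex than in striatum by 2.39, and its difference was 1.99 against control 3 alone.

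Of 21 tested genes of activin, BMP and Wnt signalling, 4 fell, none rose and 17 did not pass, where 1.15% of all genes tested fell. Their median was -0.24 against -0.0039 for all tested genes. Fst, follistatin, which binds and neutralises activins, was at 1.22, 0.55, 1.06 and 0.45 in mutants and at 3.44, 3.35, 3.47 and 3.87 in controls. The groups were far apart, and the level fell 6.55-fold (difference -2.71 ± 0.29, adjusted p = 1.69e-09, limma). Inhba, the beta subunit that forms activin A, was at 2.54, 2.37, 2.14 and 2.66 against 3.76, 3.45, 3.69 and 3.40 (difference -1.15 ± 0.18, adjusted p = 9.03e-06). The ligand Bmp2 fell by 0.83 and the ligand Wnt2 by 1.38. Wnt2 was at 0.66, 1.12, 1.22 and 1.17 in mutants and at 2.54, 2.34, 2.44 and 2.37 in controls. With the cortical mean as a covariate Fst, Inhba and Wnt2 kept their calls (differences -2.67, -1.28 and -1.32), and Bmp2 did not (-0.91, adjusted p = 0.12). Fst, Wnt2 and Inhba are lower in control cortex than striatum, by 1.92, 1.50 and 0.81. Nodal, Chrd and Fzd5 did not pass, with differences of -0.25, 0.15 and -0.43.

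Reep6, which shapes the endoplasmic reticulum and is abundant in photoreceptors, was at 0.67, 0.09, 0.39 and 0.26 in mutants and at 2.84, 2.00, 2.35 and 2.44 in controls, a 4.15-fold fall (difference -2.05 ± 0.18, adjusted p = 2.95e-12, limma). Amn, the kidney and gut partner of the vitamin B12 receptor cubilin, was at -1.81, -1.36, -0.61 and -0.65 against 0.72, 0.71, 0.67 and 0.70 (adjusted p = 5.24e-07). The 4 controls agreed closely while the mutants spread over more than 1, all below the median. Il17rc, a subunit of the interleukin-17 receptor, was at -0.29, -0.43, -0.21 and 0.13 in mutants and at 1.16, 0.87, 1.06 and 1.25 in controls. Nrtn, neurturin, a neuron survival ligand, fell by 1.29, the axon guidance gene Ntng1 by 1.50 and the phosphatase gene Ptprv by 1.39. Ptprv, Il17rc, Nrtn and Reep6 are lower in control cortex than striatum, by 3.14, 2.89, 0.92 and 0.13. Ntng1 and Amn are higher there, by 1.18 and 0.84. With the cortical mean as a covariate, Amn (adjusted p = 0.052), Nrtn (0.095), Ntng1 (0.13) and Ptprv (0.18) did not pass, and Reep6 and Il17rc did. A further fall of more than 2 belonged to a gene known only by a clone name.

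In the machinery of H3K9 methylation, 26 genes were tested, with a median of -0.045. Of these, 3 fell and none rose, where 1.15% of all genes tested fell, and 1 of the 3 is Ehmt2, the deleted gene itself. Besides Ehmt2 these were both of the demethylases Kdm3a and Kdm3b, which remove those methyl groups from the same lysine. Kdm3a was at 4.37, 4.46, 4.22 and 4.32 in mutants and at 4.97, 4.79, 4.67 and 4.75 in controls (difference -0.45 ± 0.094, adjusted p = 0.0014, limma). Kdm3b was at 3.78, 3.79, 3.93 and 3.80 against 4.37, 4.37, 4.13 and 4.36 (difference -0.48 ± 0.10). Both are lower in control cortex than striatum, by 1.01 and 0.65, and neither passed with the cortical covariate (adjusted p = 0.13 and 0.096). Kdm4c differed by -0.36 without passing (adjusted p = 0.073). The methyltransferase gene Setdb1, its cofactor gene Trim28, and the complex members Wiz and Zfp644 did not pass, with differences of 0.18, 0.21, 0.07 and -0.23.

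The label of the tissue matched its markers: the mean of 28 genes of medium spiny neuron identity was 6.46, 6.45, 6.35 and 6.54 in mutants and 6.66, 6.64, 6.63 and 6.56 in controls, compared with 4.92 in control cortex of the GLP line. With limma 0 of the 28 passed. An unadjusted p under 0.05 was found for 6, all lower in mutants, compared with 1462 (12.6%) of all genes tested. The median difference was -0.16, and all mutants lay below all controls in the list mean. All but 1 of the controls also had lower cortical marker levels than the mutants, and the part of this in the list mean was not tested. Pde10a, the striatal phosphodiesterase, differed by -0.48 (adjusted p = 0.066) and Rgs4 by -0.41, while Ppp1r1b, which encodes DARPP-32, differed by -0.04 and Rgs9 by 0.03. Of 13 tested Drd1 neuron markers 1 rose, Stmn2 (0.66), which is higher in control cortex by 1.02, and of 10 Drd2 markers 1, Ptprm (0.38, adjusted p = 0.0469, lost in every fit without 1 array). Of 12 tested interneuron genes Calb2 and Vip rose, by 1.26 and 1.48, with a list median of 0.47, where 1.88% of all genes tested rose. Calb2 was below the array median in controls 1 and 3, and Vip in controls 1, 2 and 4. Calb2 and Vip thus passed the filter with the help of mutants, so the count and median are no measure of the list. Both are higher in control cortex, by 1.77 and 4.03, control 3 had the highest Vip of the controls at 1.11, and the calls were lost in 5 and 6 of the 8 fits without 1 array. Astrocyte (21 tested), oligodendrocyte (20), microglial (18), endothelial (14), meningeal (13), choroid plexus (19) and hypothalamic, thalamic and septal (13) lists had no called gene by limma. At an unadjusted p under 0.05 they held 1, 0, 1, 0, 0, 1 and 5 genes, compared with 12.6% of all genes tested. Choroid plexus markers varied most within groups, from 1.13 to 3.03 in mutants and from -0.35 to 3.58 in controls.

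Of 14 tested receptors for dopamine, acetylcholine, opioids, adenosine and related transmitters, 3 rose, 2 fell and 9 did not pass, with a median of 0.061; over all genes tested 3.03% were called. Cnr1, the CB1 cannabinoid receptor, was at 7.14, 7.17, 6.61 and 7.17 in mutants and at 7.87, 7.59, 8.01 and 7.53 in controls, and fell by 0.72 (SE 0.11, adjusted p = 1.56e-05, limma). Htr4, a serotonin receptor coupled to cyclic AMP, was at 4.05, 4.01, 3.87 and 3.90 against 2.97, 3.06, 3.34 and 3.12 (difference 0.84 ± 0.17, adjusted p = 0.000747). With the cortical covariate both kept their calls, at -0.99 and 0.66. Cnr1 and Htr4 are lower in control cortex than striatum, by 1.32 and 0.83. Oprk1, the kappa opioid receptor, fell by 0.80, and Htr1a and Hrh1 rose by 0.69 and 0.57. These 3 calls were lost in 4, 5 and 2 of the 8 fits without 1 array. Of 26 tested glutamate receptor and scaffold genes 24 did not pass; the kainate receptor gene Grik4 rose by 0.91 and the metabotropic receptor gene Grm3 fell by 0.48. Grik4 differed by 0.22 against control 3 alone, and neither call held with the cortical covariate (adjusted p = 0.3 and 0.074). Grik4 had already lost its call in the fit of the 8 arrays alone, with no covariate. Of 35 tested voltage-gated channels 34 did not pass. The potassium channel gene Kcna4 was called, at -0.50, a share near the 3.03% of all genes tested. The call was lost in 4 fits without 1 array and with the cortical covariate. Kcna4 is lower in control cortex than striatum by 1.74. Of 14 tested neuropeptide precursors 3 rose, where 1.88% of all genes tested rose. They were Grp, Vip and Nts (neurotensin, 1.13, lost in 3 fits without 1 array). Grp was below the array median in every control and Vip in all but control 3, so this count is no measure of the list.

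Of 24 tested immediate early genes 2 rose, where 1.88% of all genes tested rose, and in each of the 2 a single array stood apart from its group. Nr4a2, an orphan nuclear receptor also expressed in deep cortex and claustrum, was at 6.07, 5.96, 4.79 and 5.71 in mutants and at 0.88, 0.93, 5.92 and 1.04 in controls. Control 3 was thus at the mutants' level, and the difference of 3.44 ± 0.61 (limma, adjusted p = 0.000122) became 4.68 without it and -0.29 against it alone. In a fit of the 8 arrays alone it did not pass (adjusted p = 0.087). Fos was at 5.15, 5.49, 3.43 and 5.21 in mutants and at 3.04, 3.92, 3.24 and 3.61 in controls, with mutant 3 among the controls. Its difference of 1.37 passed (adjusted p = 0.0273), but not without mutant 1, 2 or 4 or control 1 or 3. Egr1 and Arc differed by 0.09 and 0.53 without passing. Of 16 tested interferon-stimulated genes Ifitm2 alone rose (0.63, adjusted p = 0.0255), a call lost in 5 of the 8 fits without 1 array. Neighbours of Ehmt2 and of Camk2a were checked for effects of the modified loci: of 12 and 13 tested genes, Ehmt2 itself was the 1 called. By limma 2 neighbours of Camk2a had an unadjusted p under 0.05, compared with 12.6% of all genes tested.

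The nearest counterpart was the striatum of mice lacking GLP, which has its own controls. Of the 217 rises, 96 were also called there, which is 44.2% of the rises in the G9a striatum and 71.6% of the 134 in the GLP striatum (1.16% of genes tested there). Of the 133 falls, 22 were shared, 16.5% and 37.3% of the 2 lists, where falls were 0.511% of the genes tested in the GLP striatum. No gene was called in opposite directions. Ttn rose by 6.47 ± 0.38 on loss of GLP, Afp by 6.34 ± 0.31, Dach2 by 5.99 ± 0.22 and Corin by 5.46 ± 0.24. Nxf3 rose by 4.66 there and Fst fell by 2.38. The cortical markers did not share this: Tbr1, Slc17a7, Neurod6 and Nr4a2 differed by 0.09, 0.19, -0.24 and -0.14 in the GLP striatum, where both groups had similar levels of them. Ehmt1 fell by 0.46 in the GLP striatum (adjusted p = 0.018, limma). A test of the difference between both changes called 1 of 11878 genes (0.00842%), the deleted gene Ehmt2, at -1.28 against -0.23 (difference -1.05 ± 0.19, adjusted p = 0.0181). The same test called 9 genes without control 3, 5 without control 4, 2 without control 1, and none without mutant 1, mutant 3 or control 2. That no other gene passed with all arrays does not show that the enzymes act alike.

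**Figure D4:**
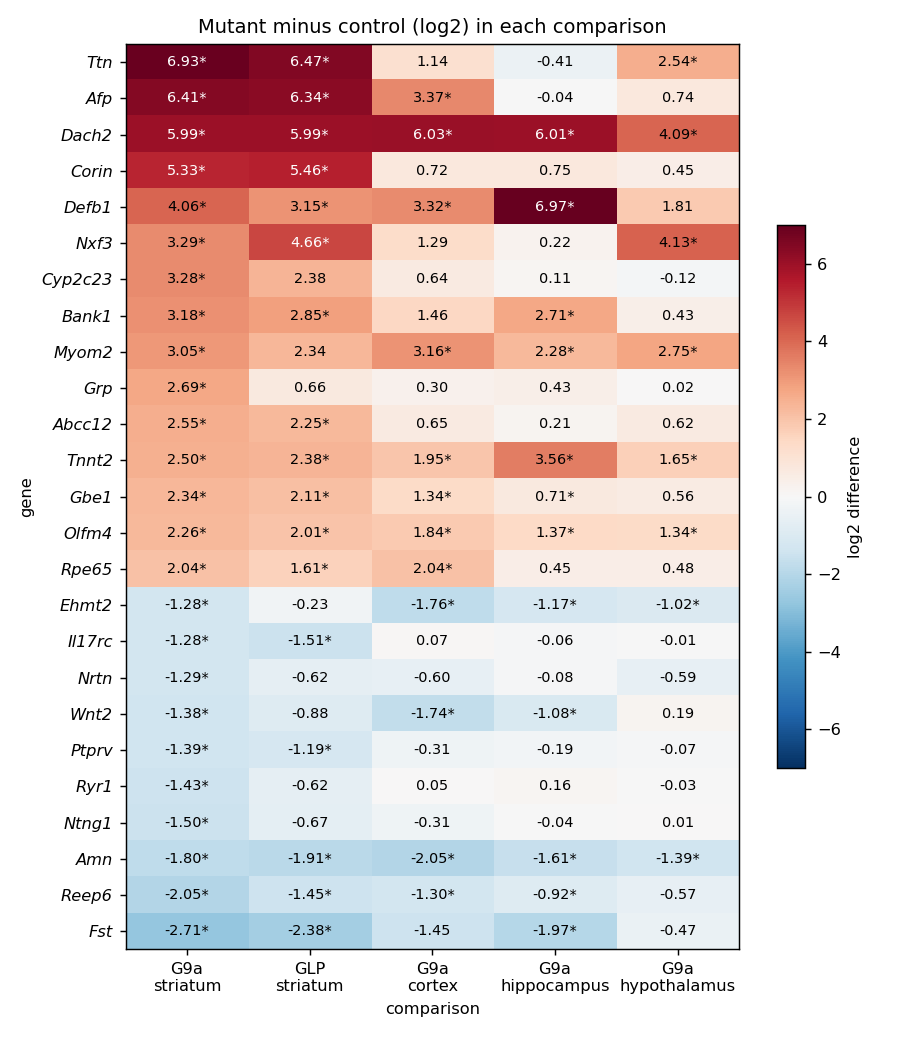
Mutant minus control (log2) for the 15 largest rises and 10 largest falls of the G9a striatum, in that comparison and in 4 others; an asterisk marks an adjusted p under 0.05, and genes without one were either not past it or too low to be tested. Ttn, Afp and Corin are above 5 in both striatum comparisons, Dach2 is above 4 in all 5, and Amn is negative with an asterisk in all 5.

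Called genes were also counted in other regions lacking G9a. In hippocampus 50 of the rises were also called (23% of the striatal list and 18.7% of the hippocampal one), in hypothalamus 22 (10.1% and 11.8%), and in cortex, with 2 arrays a group, 34 (15.7% and 45.9%). The rises called there were 2.28%, 1.59% and 0.634% of the genes tested. Of the falls, 11 were shared with hippocampus (8.27% of the striatal list and 19.6% of the other), 12 with hypothalamus (9.02% and 13.8%) and 7 with cortex (5.26% and 58.3%). In hippocampus 2 of the rises were called as falls and 1 of the falls as a rise, and in hypothalamus 1 of the falls as a rise. Falls were 0.477%, 0.741% and 0.103% of the genes tested in hippocampus, hypothalamus and cortex. The genes Ces5a, Dach2, Gstm7, Ifitm2, Lipo3, Olfm4, Serpinb1b and Tnnt2 rose and Amn fell in the G9a striatum and in all 4 of the other tissue comparisons made here, while 103 rises and 101 falls were called in none of the 4. Hippocampus, hypothalamus and cortex of mice lacking GLP were not among them. Dach2 rose by 6.01 in hippocampus, 6.03 in cortex and 4.09 in hypothalamus.

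The difference from other regions was tested directly. Against hippocampus, 100 of 12024 genes (0.832%) changed differently, 39 of them also called in the striatum. Ttn differed by 7.34 ± 0.57 between the regions, having changed by -0.41 in hippocampus (adjusted p = 5.39e-14, limma). Afp differed by 6.45 ± 0.46, Corin by 4.58 ± 0.35, Cyp2c23 by 3.17 ± 0.31 and Nxf3 by 3.07 ± 0.36, each higher in striatum. Gprc5d, an orphan receptor, went the other way: it was below -3.6 in all 8 striatum arrays and rose by 4.51 in hippocampus. Against hypothalamus, 81 of 12070 genes (0.671%) differed, 55 of them also called in striatum. Ttn rose by 2.54 in hypothalamus, less than in striatum by 4.39. Corin, Afp, Cyp2c23 and Plce1 were again higher in striatum, by 4.88, 5.67, 3.40 and 1.63. Adh6b, of the alcohol dehydrogenase family, rose by 3.75 in hypothalamus and stayed near -2 in all but 1 striatum array.

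Pools of polyribosome-bound RNA from medium spiny neurons, 3 pools of 5 mice a group, were fitted apart. The test called 3 rises in Drd1 neurons (0.0249% of genes tested) and 2 in Drd2 neurons (0.0165%), and all of them had also risen in whole striatum. Afp rose by 6.17 ± 0.50 in Drd1 and by 6.65 ± 0.50 in Drd2 neurons (limma, adjusted p = 0.00022 and 0.00018). Dach2 rose by 5.73 ± 0.45 and 3.74 ± 0.45. Bank1 rose by 2.88 in Drd1 neurons (adjusted p = 0.044) and its 2.70 in Drd2 neurons did not pass (0.071). Corin differed by 2.69 and 2.64 and Ttn by 1.76 and 2.91, with standard errors of 0.98, 0.96, 0.68 and 0.67, and none passed. Nr4a2, Tbr1 and Slc17a7 differed by between -0.48 and 0.04 in these pools.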

How the data were processed

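The authors deposited 1 intensity per probe set and array, made with GCRMA per the submitters' processing notes; its version and grouping of arrays were not given in the sources used here. Deposited intensities had a median of 1 in every array and were used as log2 with no floor. Of 45101 probe sets, the platform annotation gave 1 gene symbol for 34945, several for 932 and none for 9160; for each of 18193 genes the probe set with the highest mean in the 59 whole-tissue arrays was used, so levels of different genes are not compared. The probe sets of Cyp2c23 and Myom2 are of types that can also detect related transcripts. Groups came from the sample titles. The 16 whole-tissue groups were fitted together with limma 3.58.1 in R 4.3.3, with an intensity trend, so that p-values use the spread pooled over all groups; the labels name separate mice. The polyribosome pools had their own fit. The design's filter was applied at log2 0 in at least 4 arrays of a comparison, and differences between comparisons were contrasts of the same fit. The cortical marker mean was tested by exact permutation of the 8 arrays. Folds marked at least are measured from the array median. Gene names were given to the 15 largest rises and 10 largest falls among called genes whose groups do not overlap, the deleted gene and its partner, up to 6 members called in each list, and the 6 smallest p of each difference between comparisons. Members of lists that did not pass, Casq2 and Myh7, and the genes called in every tissue comparison made here were named after their values were seen. The genes and lists were chosen with earlier results of these data known. Alternatives were the fit of 8 arrays alone, floor, filter, trend, probe sets, quantile normalization, array weights, blocks, covariates and each array left out. No array duplicated another: correlations ran from 0.977 to 0.994 and at most 3.13% of values were identical. Xist levels put 2 arrays of each sex in both groups, with numbers 1 and 2 high and numbers 3 and 4 low in each. The fit was tested on simulated data. The number of arrays limits the precision.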

Additional observations from a re-analysis of the deposited data

Results flagged for a closer look

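Among 59 named genes and 30 list means, each examined in both groups (178 sets of 4 arrays), 18 had 1 array set apart from the other 3. The rule flags about 1 in 20 sets of independent, normally distributed values. Most of these genes were chosen from the same arrays and some also enter a list mean, so an excess over that rate was not tested. Of the 18 flags, 8 concerned control 3. It was highest among controls for Neurod6 (2.44, others -3.13 to -2.69), Slc17a7 (2.69, others -1.14 to -0.87), Tbr1 (2.70), Nr4a2 (5.92), Myh3 (0.31) and the cortical marker mean (2.54), and lowest for Ehmt2 (4.77, others 5.41 to 5.52) and Kdm3b (4.13, others 4.36 to 4.37). In 4 cases it was mutant 3: Fos (3.43, others 5.15 to 5.49) and the immediate early gene mean (3.10, others 3.69 to 3.75) and Cnr1 (6.61, others 7.14 to 7.17) were lowest there, and Kdm3b (3.93) was highest there. The other 6 were scattered, with Myom2 in control 2 at -3.32, Adh6b in control 2 at -3.06, Wnt2 in mutant 1 at 0.66, Grm3 in mutant 2 at 6.84, the Drd1 neuron marker mean in control 4 at 3.71 and the interferon-stimulated mean in control 1 at 0.77.

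Changes that differed between comparisons by the test of the difference itself were, in G9a striatum minus GLP striatum, Ehmt2 (-1.05). In striatum minus hippocampus on loss of G9a they were Ttn (7.34), Afp (6.45), Corin (4.58), Cyp2c23 (3.17), Nxf3 (3.07) and Gprc5d (-4.57). In striatum minus hypothalamus they were Afp (5.67), Corin (4.88), Ttn (4.39), Cyp2c23 (3.40), Plce1 (1.63) and Adh6b (-3.49). Each named gene was among the smallest p of its test.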

How the results depend on the processing

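Of the alternatives, those that moved the count of 350 called genes by over 1.5 times were a filter at 4 times the array median (227), leaving out control 1 (224), array weights (997), the cortical marker mean as a covariate (158) and, chosen after seeing the data, control 3 as the only control (110, with that lone array assumed to vary like the other groups). The cause was not tested beyond the smaller number of genes in the first and of arrays in the second and last. Without each array in turn the count ran from 224 to 380. The 8 arrays alone gave 383, with 253 of the 350 among them. Quantile normalization gave 360 (245 rises and 115 falls), and without genes higher in cortex, also added later, 265. For differences from GLP striatum (1 gene), a floor at the array median gave 13, array weights gave 10 and leaving out single arrays gave 0 to 9. For hippocampus (100), the floor gave 162, the stricter filter 59, weights 151 and left-out arrays 81 to 123. For hypothalamus (81), the floor gave 144, weights 752 and left-out arrays 56 to 82. The cortical marker difference of 0.76 ran from 0.64 to 1.09 over the left-out arrays. Against control 3 alone, signs reversed for Neurod6 (-1.18), Slc17a7 (-0.68), Tbr1 (-0.30), Rtn4rl2 (-0.18) and Nr4a2 (-0.29), and with the covariate for Neurod6 (-0.057). Over all alternatives for named genes 1194 values kept their side of the threshold, 202 lost it, 1 gained it and 6 reversed. These counts include the fit with control 3 as the only control, whose lone array has no spread of its own. Whether array numbers pair the samples was not settled. Numbers 1 and 2 had high Xist and numbers 3 and 4 low Xist in both groups, so number and sex went together. Same-numbered mutants and controls correlated by 0.158, 0.25, -0.037 and 0.209 in their deviations from the group means. No array correlated best with its own number, but so few arrays cannot show that the mice were unpaired. With the replicate number as a block, 323 genes were called, 222 of them among the 350. With Xist as a covariate over the 8 arrays, 494 were called, 285 of them among the 350. Dim genes, below the array median, carry only a bound on their fold.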

Other observations

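Some changes ran opposite to the difference between cortex and striatum. Of the 217 genes that rose, 19 (8.76%) were lower in control cortex of the GLP line than in its striatum by more than 1, a share near the 6.81% of all genes tested. Every mutant lay above every control in these 19, as in 184 of the 217 rises, which the call itself favours. These genes were picked out after their values were seen, and fits without single arrays were not made for those not named above. Gpx6, a glutathione peroxidase, was at 4.28, 4.69, 3.88 and 3.94 in mutants and at 3.10, 2.63, 2.21 and 2.19 in controls, a difference of 1.67 ± 0.38 (limma, adjusted p = 0.0042), and is lower in control cortex by 4.83. Ido1, which starts the breakdown of tryptophan along the kynurenine pathway, was at 6.32, 6.18, 6.30 and 6.49 against 5.56, 5.33, 5.27 and 5.29, a difference of 0.96 (adjusted p = 0.015). Phex, an endopeptidase known from bone mineralisation, was at 3.85, 3.82, 3.42 and 3.16 against 2.14, 2.29, 2.02 and 1.36, a 3.06-fold rise (adjusted p = 5.8e-06). These are genes with a higher level in striatum than in cortex that rose further in the mutant striatum.

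Others of this kind were Myo3b, an unconventional myosin of sensory cells (1.37), Melk, a kinase of dividing cells (1.59), Stc1, the secreted hormone stanniocalcin (0.70), and Cdh13, a membrane-anchored cadherin (0.62). In Melk, controls 3 and 4, at 1.67 and 1.51, lay nearer to the mutants, which were between 2.41 and 2.93, than controls 1 and 2, at 0.57 and 0.36. Only 2 genes fell while being higher in control cortex by more than 1, Ntng1 and the ephrin receptor gene Epha10. Epha10 was at 1.08, 1.07, 0.80 and 1.18 in mutants and at 1.43, 1.74, 1.82 and 1.59 in controls (difference -0.62, adjusted p = 0.0017).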
